A study of Mus musculus with 12 samples.

Results

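The 9 genes described here, Cyp4a14, Cyp4a10, Ehhadh, Acot1, Acot3, Abcd2, Pdk4, Vnn1 and Pex11a, are liver genes known to respond to the fatty acid receptor PPAR-alpha. They were followed on 12 Affymetrix whole-transcript arrays of mouse liver. They were chosen by symbol, among 30142 genes that have a probe set of their own in the values table, and 8 of the 9 had such a probe set, 1 each. All of these 8 passed the filter on low values that left 18725 genes for testing. The only probe set annotated with Cyp4a10 is annotated with Cyp4a31 as well, so its values are given under both names. It entered no limma test and no correlation between pairs, and it is included where 9 probe sets are counted. The genes were selected with earlier results of these arrays known, among them the group differences of Cyp4a14 and Ehhadh and the high score of fatty acid oxidation genes on 1 control array. Their levels and their co-variation are therefore given as a description.

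All samples were livers of male C57BL/6 mice aged 12 weeks, in 3 groups of 4. The F2 group held grandsons of obese Avy/a females the F3 group great-grandsons in such lines, and control males had lean control parents. The sample labels call F2 and F3 males sons of an obese mother, and the generations are those of the design text. Avy, viable yellow, is an obesity-causing allele of the agouti locus. The labels do not say whether any of the males measured carried it, nor to which generation each control male belonged. The labels do not state that each replicate came from its own animal. The p-values therefore cover only the spread between these samples, which may be technical, and precision is limited by the number of arrays.

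PPAR-alpha is a nuclear receptor that binds fatty acids and, paired with RXR, binds DNA at direct repeats of the half-site AGGTCA. In the liver it is known for switching on fatty acid catabolism during fasting: omega-hydroxylation in the endoplasmic reticulum, beta-oxidation in peroxisomes and in mitochondria, and ketone body formation. In rodents its ligands also make peroxisomes multiply. Cyp4a14 and Cyp4a10 start omega-oxidation, Abcd2 carries very long chain acyl-CoA into peroxisomes, and Ehhadh is the bifunctional enzyme of peroxisomal beta-oxidation. Acot1 and Acot3 release fatty acids from acyl-CoA in the cytosol and in peroxisomes, and Pex11a takes part in peroxisome division. Pdk4 restrains pyruvate dehydrogenase and so spares glucose, and Vnn1 is the pantetheinase that yields vitamin B5 and cysteamine.

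Promoter windows of RefSeq (assembly GRCm38.p6, mostly the bases before an annotated start) were matched for 5 of the 9 genes, in 6 windows of 300 bases: Pdk4, Pex11a, Acot1, Acot3 and Ehhadh. The sequences of 3 of them are shown. Acot3 is shown because it was the only gene of the 5 with an AGGTCA half-site, in capitals and on the reverse strand, just after the annotated start. Ehhadh stands for a gene that followed the others on the arrays, and Pdk4 for the one that followed them least.
Acot3, chr12:84051894-84052193, plus strand: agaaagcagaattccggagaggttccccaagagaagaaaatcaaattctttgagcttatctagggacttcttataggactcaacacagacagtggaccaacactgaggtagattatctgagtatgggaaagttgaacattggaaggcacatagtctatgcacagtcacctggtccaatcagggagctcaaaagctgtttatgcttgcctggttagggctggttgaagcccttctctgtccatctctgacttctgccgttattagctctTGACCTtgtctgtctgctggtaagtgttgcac
Ehhadh, chr16:21787785-21788084, minus strand: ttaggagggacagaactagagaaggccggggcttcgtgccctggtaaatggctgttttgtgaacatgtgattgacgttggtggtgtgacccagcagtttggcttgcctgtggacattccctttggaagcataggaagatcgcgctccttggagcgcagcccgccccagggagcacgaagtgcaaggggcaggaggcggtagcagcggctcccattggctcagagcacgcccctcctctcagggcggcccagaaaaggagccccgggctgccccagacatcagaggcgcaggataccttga
Pdk4, chr6:5496229-5496528, minus strand: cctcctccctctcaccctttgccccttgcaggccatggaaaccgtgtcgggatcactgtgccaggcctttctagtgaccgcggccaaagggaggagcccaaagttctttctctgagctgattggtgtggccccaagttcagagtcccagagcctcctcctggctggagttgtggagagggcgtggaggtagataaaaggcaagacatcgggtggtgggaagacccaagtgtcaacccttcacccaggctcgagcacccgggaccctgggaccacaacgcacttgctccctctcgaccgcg
Searched on both strands, AGGTCA was present in 16.3% of 32851 RefSeq promoter windows of this length. The pair of AGGTCA half-sites 1 base apart, called DR1, is the textbook PPAR-alpha element and holds the half-site itself. It was in none of the 6 windows, either exactly or with up to 2 mismatches, against 0.0396% and 3.86% of all windows. The windows cover only the stretch next to the start, and a match describes letters, not binding.

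Liver identity and array quality were checked first. The mean level of 8 hepatocyte markers was 12.30 to 12.45 in F2, 12.36 to 12.44 in F3 and 12.33 to 12.43 in control livers (log2 values). The Y-linked Eif2s3y, Uty and Kdm5d were between 5.93 and 6.94 on all arrays, with Xist at 3.37 to 3.60. These Y-linked values also lay under 7.05, the 95th percentile of the negative control probe sets, which limits the sex check. Kupffer cell markers (8 of 8 tested) averaged 7.45 to 8.21 in F2, 7.31 to 7.93 in F3 and 7.56 to 7.81 in control livers. Of the adipocyte markers 4 of 7 passed the filter, averaging 4.93 to 5.06, 4.87 to 5.05 and 4.91 to 5.23 in F2, F3 and control livers, and Adipoq and Ucp1 did not pass it. These averages lay under 7.05 as well. In bulk liver, fewer cells of a type and less RNA per cell cannot be told apart. Arrays correlated with each other at r = 0.967 to 0.993 over all probe sets. Small nucleolar RNAs split the arrays into a set of 7 with higher and a set of 5 with lower levels. The higher set held F2 replicates 1 and 4, F3 replicates 1, 2 and 3, and control replicates 2 and 4.

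The main feature of the 9 genes was their spread between livers of the same group. Control replicate 2 was the highest of the 12 arrays for all 9 probe sets, and F2 replicate 4 was the second highest for all 9. The lowest array was F3 replicate 4 for 4 probe sets, F2 replicate 2 for 3 and control replicate 1 for 2. Between the lowest and the highest array, the deposited values differed by 1.65 log2 units for Pdk4 to 6.87 for Cyp4a14. Values under 7.05, the 95th percentile of the negative control probe sets, were found on 11 of 12 arrays for Pdk4, 10 for Acot3 and for Abcd2, 4 for Acot1, 2 for Cyp4a14 and 1 for Vnn1 and for Pex11a. Distances from such low values are not measured above background. The median standard deviation (SD) over the 12 arrays was 0.995 log2 units for the 8 genes with their own probe set, against 0.124 for all 18725 genes tested, and 6 of the 8 were among the top 1% by SD. Differences between group means accounted for 13.2% of the variance of these genes at the median, against 9.6% for all genes tested.

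Cyp4a14, a cytochrome P450 that hydroxylates the end of fatty acid chains, varied most. Its log2 values were 8.69, 6.92, 7.79 and 11.62 in F2 livers, 7.96, 8.82, 8.0 and 5.72 in F3 livers and 7.46, 12.59, 9.76 and 7.14 in control livers, replicates 1 to 4 each. By SD over the 12 arrays it ranked 3 among the 18725 genes. Control replicate 2 was 7.12 times as high as the next control array and F2 replicate 4 was 7.63 times as high as the next F2 array, while no F3 array reached 9. The 3 groups overlapped.

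The probe set shared by Cyp4a10, the close relative of Cyp4a14, and Cyp4a31 gave 10.71, 9.22, 10.46 and 11.98 in F2 livers, 10.47, 10.84, 9.73 and 8.37 in F3 livers and 9.85, 12.21, 11.40 and 9.91 in control livers. It followed Cyp4a14 over the 12 arrays (Pearson r = 0.95) and also over the 10 arrays without control replicate 2 and F2 replicate 4 (r = 0.95). Near-identical Cyp4a copies can share probes, and how far that links these values was not tested. F3 replicate 4 was lowest for both probe sets.

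Ehhadh carries out the hydratase and dehydrogenase steps of the peroxisomal spiral. It was measured at 10.34, 9.16, 10.23 and 11.42 in F2 livers, 10.16, 10.20, 9.89 and 9.61 in F3 livers and 9.97, 12.03, 10.22 and 10.26 in control livers. F3 livers lay within an SD of 0.27, against 0.92 in F2 and 0.95 in control livers. Control replicate 2 was 3.41 times as high as the next control array. In F2 livers replicate 4 lay above and replicate 2 below the other arrays, replicate 4 at 2.11 times the next F2 array.

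Abcd2, the transporter that feeds very long chain acyl-CoA to that pathway, was at 6.51, 5.70, 6.10 and 7.23 in F2 livers, 6.32, 7.01, 6.51 and 5.18 in F3 livers and 5.56, 9.24, 5.44 and 6.36 in control livers. Of the negative control probe sets, 9.5% lay above its mean, so it was measured near background on many arrays. Control replicate 2 was 2.88 log2 units above the next control array, and for this gene it stood 2.01 log2 units above F2 replicate 4, the widest such gap among the 9 probe sets.

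The cytosolic thioesterase Acot1 was at 8.23, 7.04, 8.21 and 9.15 in F2 livers, 7.45, 7.52, 6.93 and 7.37 in F3 livers and 6.75, 9.86, 7.77 and 6.96 in control livers. F2 replicates 1, 3 and 4 lay above all F3 arrays, and F2 replicate 2 lay among them. The peroxisomal Acot3 was at 6.85, 5.28, 6.11 and 7.53 in F2 livers, 6.41, 6.48, 5.27 and 5.22 in F3 livers and 5.05, 8.93, 6.19 and 5.47 in control livers. The groups overlapped for both genes. Negative control probe sets lay above the mean of Acot3 in 11.8% of cases.

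Vnn1 was at 8.79, 7.38, 8.74 and 9.85 in F2 livers, 8.13, 8.77, 7.89 and 6.68 in F3 livers and 7.31, 10.18, 7.79 and 7.71 in control livers. Pex11a was at 8.07, 6.96, 7.86 and 8.24 in F2 livers, 7.39, 7.64, 7.12 and 7.23 in F3 livers and 7.42, 8.76, 7.24 and 7.34 in control livers. For both genes 3 F2 arrays lay above the 3 control arrays other than replicate 2, and F2 replicate 2 lay among these 3 for Vnn1 and below them for Pex11a. F3 arrays overlapped with both groups.

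For Pdk4 a single array stood out. It was at 5.66, 5.48, 5.79 and 5.86 in F2 livers, 5.76, 5.75, 5.85 and 5.79 in F3 livers and 5.73, 7.13, 5.65 and 5.76 in control livers. Control replicate 2 was 1.27 log2 units above the second array, and F2 replicate 4 was only 0.01 above the third. That last gap was also small for Pex11a (0.17) and Abcd2 (0.22). Negative control probe sets lay above the mean of Pdk4 in 16.8% of cases, the highest share among the 9 probe sets, and it failed a stricter filter (mean above 5.92).

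**Figure D1:**
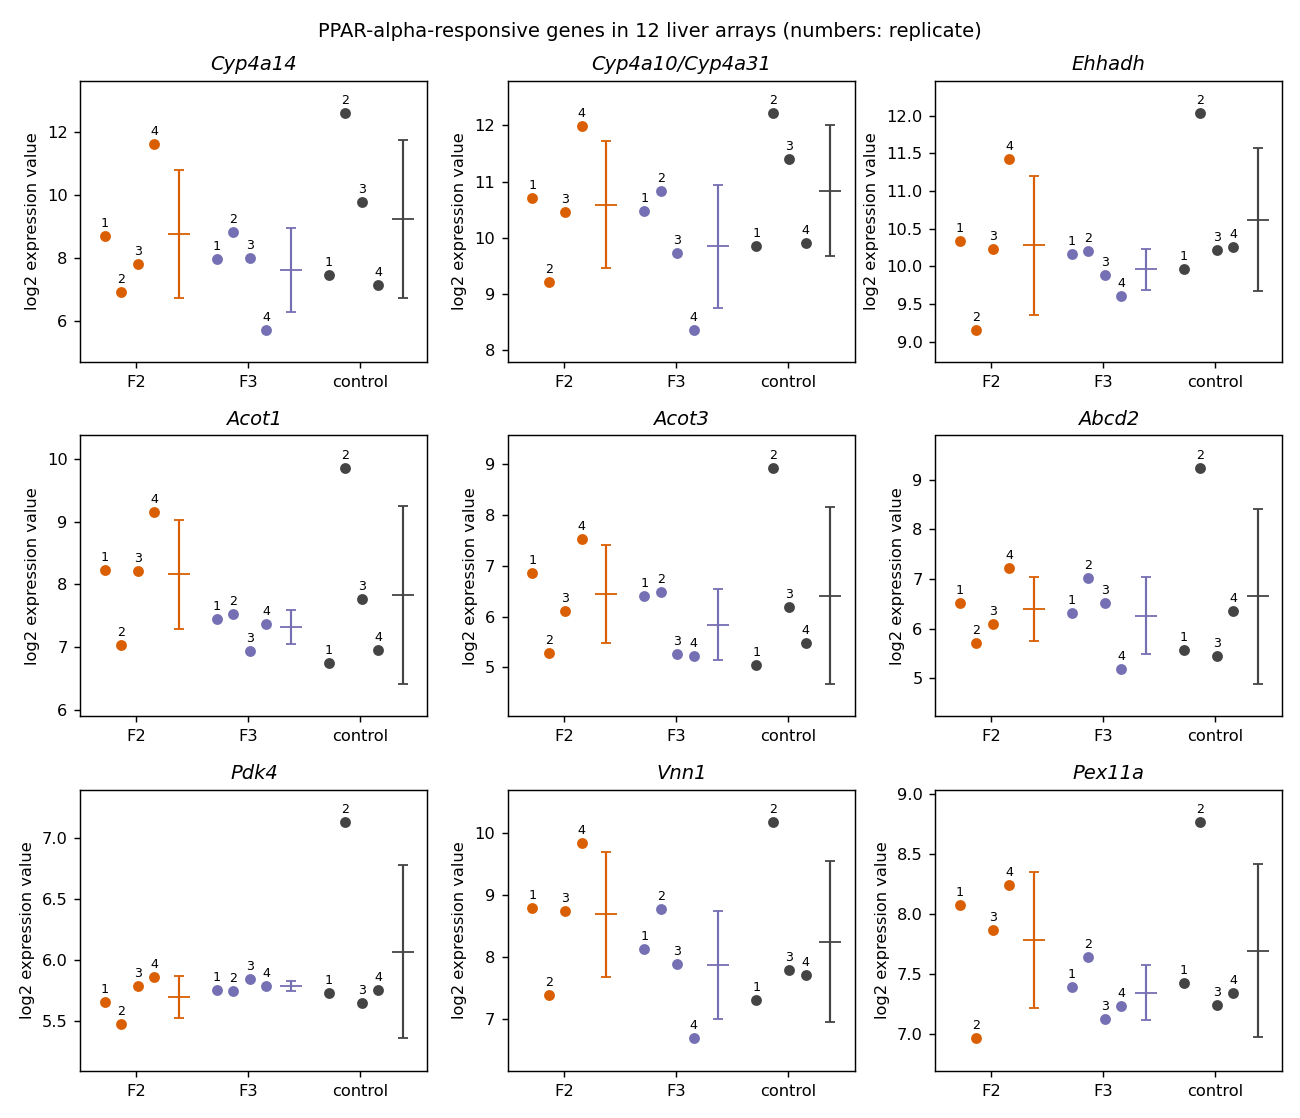
Log2 expression value (vertical axis) of each probe set on the 12 arrays, by group (horizontal axis: F2, F3, control), with the replicate number above each point and the group mean ± SD (n = 4) as a bar to the right. Control replicate 2 is the highest point and F2 replicate 4 the second highest in all 9 panels.

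Pooled into a score, the mean over the 8 genes of each value's distance from the gene's mean in SD units, the arrays were at 0.27, −0.94, 0.05 and 1.14 in F2 livers, −0.19, 0.10, −0.47 and −0.90 in F3 livers and −0.68, 2.33, −0.26 and −0.45 in control livers. All 8 genes were above their own mean on control replicate 2 and on F2 replicate 4, and 7 were on F2 replicate 1. None of the 8 was above its mean on F2 replicate 2, F3 replicate 4, control replicate 1 or control replicate 4. The median score was 0.16 in F2, −0.33 in F3 and −0.35 in control livers, so the median control liver was close to the F3 livers, with 1 control liver far above.

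Some measures of the arrays moved with the score in part. The 7 arrays of the higher small nucleolar RNA set had scores from −0.47 to 2.33 and the 5 of the lower set from −0.94 to 0.05, and both arrays with the highest scores were in the higher set. The 8 Kupffer cell markers had a median r of −0.43 with the score over the 12 arrays, and the deviation of these markers was largest on F2 replicate 2, at 0.46 log2 units, the array with the lowest score. Over 10 arrays the median r of the Kupffer cell markers was −0.60. The 3 of 5 neutrophil markers tested averaged 4.83 to 5.19 in F2, 4.91 to 5.07 in F3 and 4.74 to 5.20 in control livers, with a median r of −0.71 over 12 arrays and −0.23 over 10, and S100a8 and Retnlg did not pass the filter. The pancreas (3 of 5 tested), cholangiocyte (3 of 6), kidney (2 of 4) and lymphocyte (4 of 8) markers had medians of −0.59, −0.50, −0.46 and −0.39 over 12 arrays and of −0.03, −0.27, −0.06 and −0.57 over 10. The mean levels of these sets and of the neutrophil markers lay under 7.05, the 95th percentile of the negative controls, on all arrays. Their r values are thus not measured above background. The endothelial and stellate markers (8 of 8 each) had 0.38 and −0.17 over 12 arrays and −0.11 and −0.49 over 10. The part of any of these in the pattern was not tested.

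**Figure D2:**
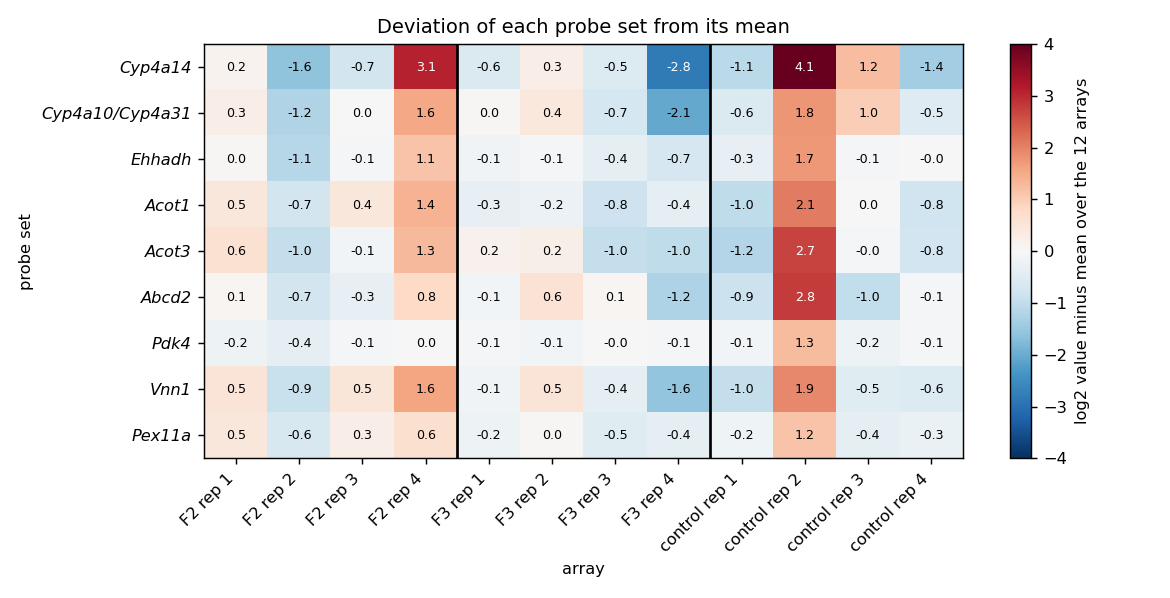
Log2 value minus the mean over the 12 arrays (colour and printed numbers) for each probe set (rows) on each array (columns, F2, F3 and control livers from left to right, black lines between groups). The columns of control replicate 2 and F2 replicate 4 are above the mean in every row, and those of F2 replicate 2 and F3 replicate 4 are below it in every row.

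The genes varied together over the arrays. Over the 12 arrays the 28 pairs of the 8 genes had a median Pearson r of 0.87 (0.63 to 0.95) and a median Spearman rho of 0.73 (0.24 to 0.92). After the group mean was taken off each value the median r was 0.88 (0.69 to 0.96), so the genes also varied together within groups. The control mean includes control replicate 2, which shifts the other control values down together, and this view is not given without that array. Without control replicate 2 and F2 replicate 4, the arrays farthest from the median score, the median r with group means left in was 0.51 (−0.10 to 0.83), and rho was 0.54 (−0.32 to 0.87). The coefficient thus rests in part on these arrays. It describes 12 arrays that each share 1 RNA sample and 1 hybridisation across genes.

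Members differed in how far they kept to the pattern without those arrays. Vnn1 had r = 0.92 with the mean of the other genes over 12 arrays and 0.89 over 10. Acot3 had 0.96 and 0.83, Ehhadh 0.95 and 0.81, and Pex11a 0.92 and 0.77. The values were lower over 10 arrays for Acot1 (0.92 and 0.63), Abcd2 (0.90 and 0.59) and Cyp4a14 (0.89 and 0.59). Pdk4 had 0.78 over 12 arrays and 0.15 over 10, and without Pdk4 the 21 remaining pairs had a median r of 0.89 over 12 arrays and 0.66 (0.16 to 0.83) over 10. Acot1 and Acot3, members of 1 gene cluster on chromosome 12, correlated at 0.95 and 0.81.

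**Figure D3:**
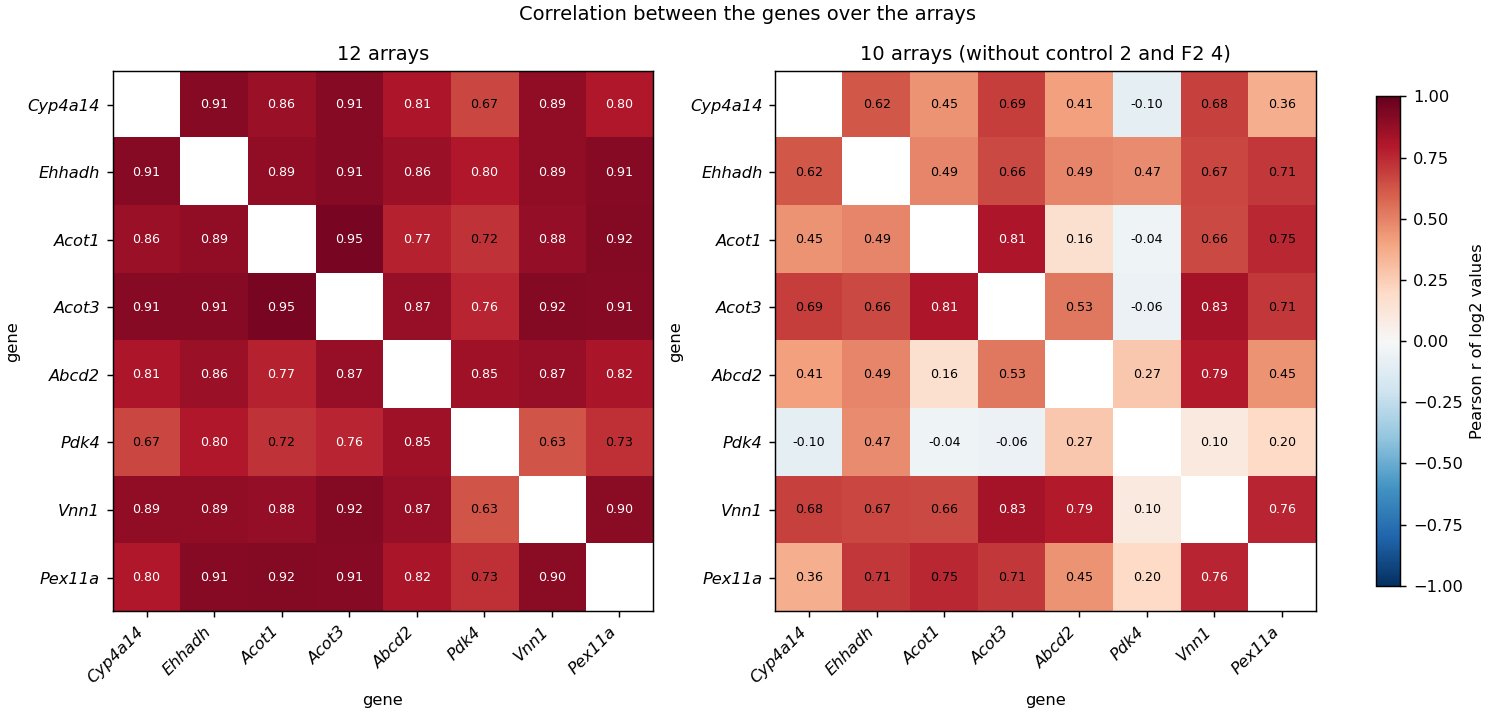
Pearson r between the log2 values of each pair of genes, over 12 arrays (left) and over the 10 arrays without control replicate 2 and F2 replicate 4 (right), with genes on both axes and r in colour and print. All 28 pairs are positive on the left, and the pairs of Pdk4 with Cyp4a14, Acot1 and Acot3 are slightly below 0 on the right.

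None of the 8 genes differed between groups beyond the spread of the arrays. For F2 livers against control livers, limma called 0 of 8 genes (adjusted p = 0.9999 for each, Benjamini-Hochberg over 18725 genes), and 0% of all genes tested were called. At an unadjusted p under 0.05 it was 0 of 8 against a background of 0.919% (172 genes), and arrays that did not overlap were found for 0 of 8 against 0.705%. On average 4 genes were higher and 4 lower in F2 livers, with a median difference of −0.11 log2 units, against −0.01 for all genes. Vnn1 averaged 8.69 ± 1.01 in F2 and 8.25 ± 1.31 in control livers, a difference of 0.44 (SE 0.65). Acot1 averaged 8.16 ± 0.87 in F2 and 7.83 ± 1.42 in control livers (SD, n = 4 each), a difference of 0.32 (SE 0.59). Cyp4a14 had −0.49 (SE 1.22), with a 95% interval from −3.15 to 2.17, so changes of several fold in either direction lie inside it.

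The sign turned without control replicate 2 for 3 genes, Cyp4a14, Ehhadh and Abcd2. Cyp4a14 (0.13) and Ehhadh (0.043) turned without F2 replicate 2 as well, and Acot1, Acot3 and Pex11a turned without other arrays. With control replicate 2 left out, 7 of the 8 genes were higher in F2 livers and the median difference was 0.62. Vnn1 was then at 1.09, Acot1 at 1.00, Acot3 at 0.87, Cyp4a14 at 0.63 and Pdk4 at −0.017. Acot1 was then the 1 gene of the 8 at an unadjusted p under 0.05 in limma, beside 573 of all 18725 genes tested. Again no gene was called. Without F2 replicate 4 instead, 7 of the 8 were lower in F2 livers, with a median of −0.38. Without both, 5 were higher and 3 lower, with a median of 0.31.

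For F3 livers against control livers limma again called 0 of 8 genes (adjusted p = 0.9998 for each), against 0% of all genes. At an unadjusted p under 0.05 it was 0 of 8 against 2.93% (548 genes), and arrays without overlap were found for 0 of 8 against 1.63%. All 8 means were lower in F3 livers, with a median difference of −0.45 log2 units against −0.01 for all genes. Cyp4a14 averaged 7.62 ± 1.33 in F3 and 9.24 ± 2.52 in control livers, a difference of −1.62 (SE 1.22). Ehhadh averaged 9.96 ± 0.27 in F3 and 10.62 ± 0.95 in control livers, a difference of −0.65 (SE 0.47), and the smallest unadjusted p among the 8, 0.193, was that of Ehhadh. Acot3 had −0.56 (SE 0.74) and Pex11a −0.35 (SE 0.33).

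The common direction of these means came with a single control liver. Without control replicate 2, 6 of the 8 genes were higher and 2 lower in F3 livers, with a median difference of 0.12. Cyp4a14 then had −0.50 and Ehhadh −0.18, while Abcd2 had 0.47 and Pex11a 0.0062. Group medians did not all share the direction. The F3 median was under the control median for Cyp4a14, the Cyp4a10/Cyp4a31 probe set, Ehhadh and Pex11a. It was above the control median for Acot1, Acot3, Abcd2, Pdk4 and Vnn1. Among the 3 groups, control had the highest median for 2 of the 9 probe sets, F2 for 5 and F3 for 2. With the small nucleolar RNA set as a block the median difference was −0.76, and within the higher set alone, which holds control replicate 2, it was −1.08. Within the lower set, which holds a single F3 array, it was −0.36, assuming that this array varies like the others.

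F3 livers against F2 livers had 0 of 8 genes called (limma, adjusted p = 0.9999 for each), with 0% of all genes called. At an unadjusted p under 0.05 it was 0 of 8 against 2.37% (443 genes), and arrays without overlap were found for 0 of 8 against 2.46%. Of the 8 means 7 were lower in F3 livers, with a median of −0.52 against 0.003 for all genes. Acot1 averaged 7.32 ± 0.27 in F3 and 8.16 ± 0.87 in F2 livers, a difference of −0.84 (SE 0.59), Vnn1 had −0.82 (SE 0.65) and Cyp4a14 −1.13 (SE 1.22), while Pdk4 had 0.09 (SE 0.26). Without F2 replicate 4, 5 were lower and 3 higher, with a median of −0.21. Both comparisons of F3 share the F3 arrays, and both comparisons with control share the control arrays, so they are not independent of each other.

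**Figure D4:**
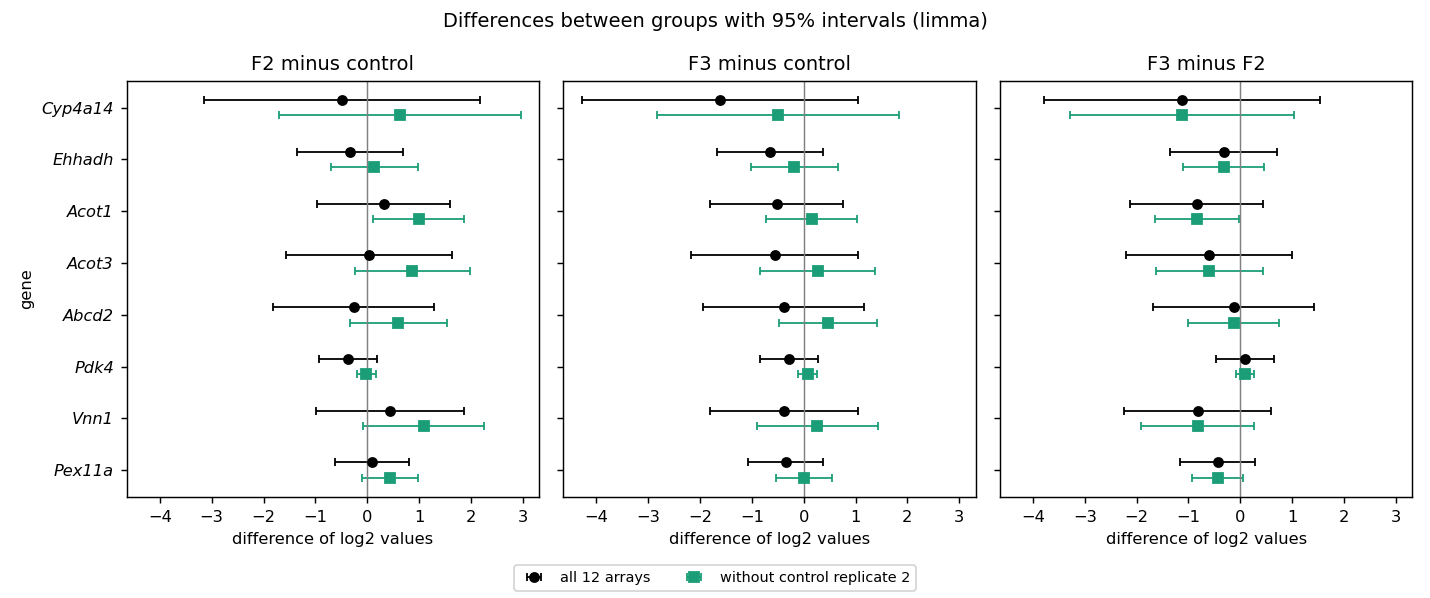
Difference of log2 values between groups (horizontal axis) with 95% intervals from limma for the 8 genes (rows), over all 12 arrays (black circles) and without control replicate 2 (green squares). Over 12 arrays every interval spans 0, and without control replicate 2 the estimates against control move to the right for every gene, with the interval of Acot1 just off 0 in F2 minus control and in F3 minus F2.

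The receptor and its partners were measured beside their targets. Ppara itself was at 10.03, 9.60, 10.03 and 9.99 in F2 livers, 9.94, 9.93, 9.47 and 9.59 in F3 livers and 9.60, 9.98, 9.80 and 9.80 in control livers. Its r with the score was 0.66 over 12 arrays and 0.84 over 10. Rxra, the DNA-binding partner, differed from control by 0.12 (SE 0.07) in F2 and by −0.12 (SE 0.07) in F3 livers, without passing the test. In F3 against F2 livers it had −0.25 (SE 0.07, adjusted p = 0.9999 in limma), with 9.77, 9.70, 9.58 and 9.58 in F3 livers all below 9.90, 9.99, 9.84 and 9.90 in F2 livers. Arrays of these groups did not overlap for 2.46% of all genes tested (460 genes). Of 15 receptor and cofactor genes tested, 0 were called in each comparison. Fgf21, a hormone gene induced by PPAR-alpha in fasting, was at 5.15, 5.74, 4.93 and 5.56 in F2 livers, 5.12, 5.35, 5.27 and 5.35 in F3 livers and 5.14, 5.90, 5.44 and 5.12 in control livers. Its r was 0.48 over 12 arrays and −0.59 over 10, and all its values lay under 7.05, the 95th percentile of the negative controls. Ppara, Fgf21, the F3 against F2 result of Rxra and the genes named in the next paragraphs for their r within a list were picked after their values were seen.

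Of 133 genes tested in 9 related lists, 0 were called by limma in any comparison, and 3, 4 and 11 were at an unadjusted p under 0.05 in F2 against control, F3 against control and F3 against F2. These are 2.26%, 3.01% and 8.27% of the 133, beside 0.919%, 2.93% and 2.37% of all genes tested. Over the 12 arrays 34 of the 133 (25.6%) had r above 0.8 with the score, against 1.15% of 18717 genes outside the 8, and over 10 arrays 17 (12.8%) against 0.502%. The lists were chosen with earlier results of these arrays known, so these shares are a description. In the omega-oxidation list, 3 of 13 genes passed r = 0.8: Cyp4a31 (0.89) and Cyp4a32 (0.86), near copies of Cyp4a10, and Aldh3a2 (0.88, and 0.95 over 10 arrays), which oxidises fatty aldehydes to acids. Among the Cyp4f hydroxylases, Cyp4f14 had r = −0.81 over 12 arrays and 0.05 over 10, Cyp4f16 had −0.80 and −0.46, and Cyp4f17 had 0.57 and 0.19. All values of Cyp4f16 lay under 7.05. In the list of peroxisomal oxidation enzymes 9 of 23 passed r = 0.8, among them Ech1 (0.96), Hsd17b4 (0.93) and the thiolases Acaa1a (0.92) and Acaa1b (0.88). Catalase, coded by Cat, had 0.67 over 12 arrays and 0.73 over 10. The oxidases Uox and Hao1 had −0.18 and −0.25 over 12 arrays, so the list was split there. Over 10 arrays Uox had 0.42 and Hao1 0.52, so their negative values rest on the arrays left out.

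Among 10 thioesterases and hydrolases the mitochondrial Acot2 (0.98) and the peroxisomal Acot4 (0.93) passed r = 0.8, and the CoA hydrolase Nudt7 had −0.71. Acot4 lay above 7.05 only on control replicate 2 (7.84) and F2 replicate 4 (7.45), and its r was 0.77 over 10 arrays. Abcd3, the other main fatty acid transporter of liver peroxisomes, had 0.84, the only one of 11 transporters and ligases above 0.8. Of 16 peroxisome biogenesis genes 3 passed, Pex19 (0.96), Lonp2 (0.88) and Pex5 (0.82). Of 31 other known targets of the receptor 13 passed, with a median r of 0.73 over 12 arrays and 0.63 over 10. These 31 were split 19 higher to 12 lower in F2 against control livers (median 0.06) and 4 to 27 in F3 against control livers (median −0.08). The median of F3 against control was 0.05 without control replicate 2. In F3 against F2 livers 2 were higher and 29 lower, with a median of −0.09 against 0.003 for all genes. Many of the 31 varied with the score, so these counts are not of separate results. In this comparison the median of the 8 genes was −0.52 over 12 arrays and −0.21 without F2 replicate 4. Of 9 genes around pyruvate dehydrogenase 1 passed r = 0.8, Dlat (0.82), and of 9 genes of coenzyme A supply 1 passed, Pank3 (0.83). Dlat lay under 7.05 on most arrays.

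**Figure D5:**
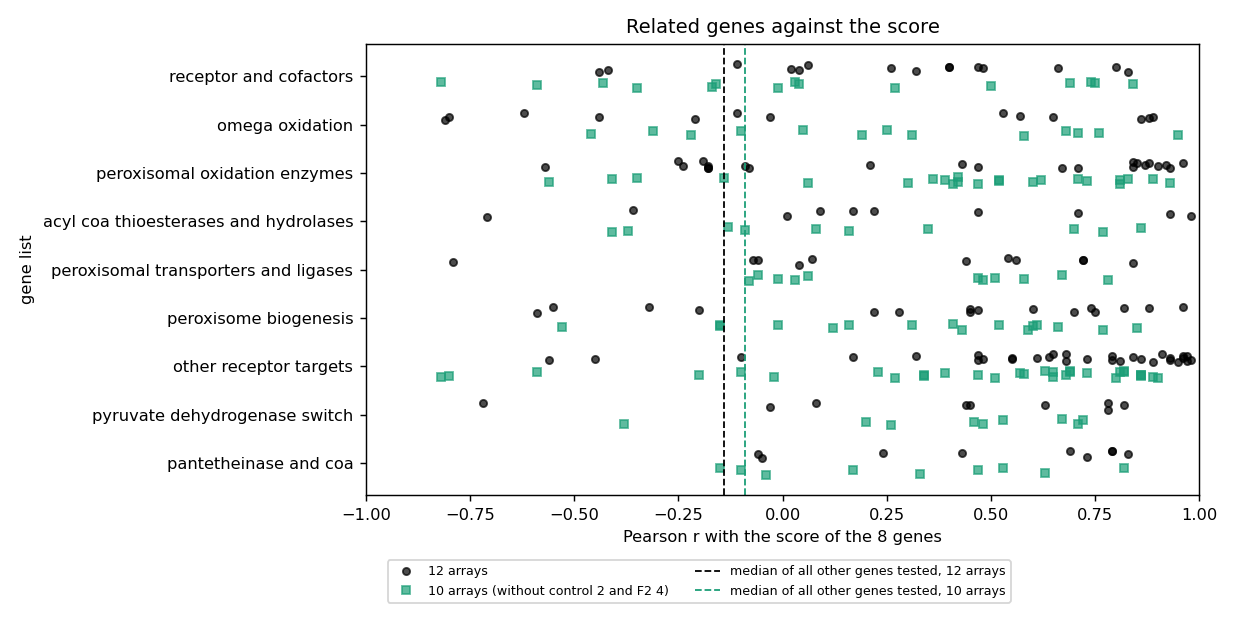
Pearson r of each related gene with the score of the 8 genes (horizontal axis) for 9 gene lists (rows), over 12 arrays (black circles) and over the 10 arrays without control replicate 2 and F2 replicate 4 (green squares), with dashed lines at the medians of all other genes tested (−0.14 and −0.09). The list of other receptor targets lies farthest right, with a median r of 0.73 over 12 arrays and 0.63 over 10.

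The related genes next described had 1 of the 3 lowest unadjusted p-values of their list in a comparison with control. Adh4, an alcohol dehydrogenase that can oxidise omega-hydroxy fatty acids, was at 9.52, 9.62, 9.62 and 9.71 in F2 livers, 9.74, 9.65, 9.45 and 9.93 in F3 livers and 9.34, 9.35, 9.42 and 9.32 in control livers. Both F2 and F3 values lay above all control values, by 0.26 (SE 0.09) and 0.34 (SE 0.09) on average, with adjusted p = 0.9999 and 0.9998 in limma and r = −0.21 with the score. Arrays without overlap with control were found for 0.705% of all genes in F2 and 1.63% in F3. Pex6, an ATPase that recycles the peroxisomal import receptor, was at 7.56, 7.56, 7.54 and 7.54 in F3 livers and 7.73, 7.68, 7.78 and 7.70 in control livers, a difference of −0.17 (SE 0.05) that did not pass the test either. Tysnd1, a peroxisomal protease, had −0.17 (SE 0.06) in F3 against control livers and Slc5a6, a vitamin transporter with r = 0.73, −0.23 (SE 0.09), or −0.13 without control replicate 2. In F2 against control livers Pdhb, a subunit of pyruvate dehydrogenase, had −0.33 (SE 0.12), Acot13 −0.21 (SE 0.10) and Cpt1a, the gatekeeper of mitochondrial fatty acid uptake with r = 0.68, 0.25 (SE 0.12). Angptl4, a receptor target that inhibits lipoprotein lipase, had −0.40 (SE 0.28) in F3 against control livers and r = 0.32 with the score. None of these passed the test.

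Likeness to the score was then ranked across all genes tested. The 10 with the highest r over 12 arrays were Acot2 (0.983), Acadl (0.978), Hadhb (0.971), Hadha (0.969), Chdh (0.965), Acadvl (0.959), Acadm (0.959), Pex19 (0.956), Ech1 (0.955) and Tenm3 (0.953). Acadl, Acadm and Acadvl are acyl-CoA dehydrogenases for chains of different length, and Hadha and Hadhb form the trifunctional protein. Chdh oxidises choline, and it and Tenm3, a cell surface protein, were the ones among the 10 on none of the 9 lists. Tenm3 lay above 7.05, the 95th percentile of the negative controls, only on control replicate 2 (7.53). Acot2 was at 8.52, 7.96, 8.53 and 9.41 in F2 livers, 8.20, 8.39, 8.0 and 7.45 in F3 livers and 7.66, 10.43, 8.27 and 7.97 in control livers. The mitochondrial genes followed with small steps: Acadl was at 9.87, 9.56, 9.80 and 10.11 in F2 livers, 9.83, 9.93, 9.77 and 9.72 in F3 livers and 9.64, 10.45, 9.80 and 9.68 in control livers, an SD of 0.24.

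Without control replicate 2 the 10 most alike were Decr1 (0.958), Hadha, Eci1, Acadl, Hadhb, Acadvl, Acaa1a, Etfdh, Acot2 and Aldh3a2 (0.928), and 5 genes were in both sets of 10: Acadl, Acadvl, Acot2, Hadha and Hadhb. Decr1 and Eci1 handle unsaturated fatty acids in mitochondria, and Etfdh passes their electrons to the respiratory chain. Over 12 arrays 215 genes had r above 0.8 and 176 below −0.8, and without control replicate 2 the counts were 91 and 88.

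The 5 genes most opposed over 12 arrays were Fam81a (−0.960), Smim8 (−0.957), Dnph1 (−0.956), C8b (−0.946) and Orm1 (−0.924). All values of Fam81a and Smim8 lay under 7.05, the 95th percentile of the negative controls. C8b is a complement component and Orm1 an acute phase glycoprotein, both secreted by hepatocytes. Orm1 was at 11.30, 12.52, 11.37 and 10.88 in F2 livers, 11.33, 11.21, 11.73 and 12.16 in F3 livers and 12.05, 10.19, 11.34 and 11.42 in control livers, so it was lowest on control replicate 2 and F2 replicate 4 and highest on F2 replicate 2 and F3 replicate 4. It kept r = −0.92 over 10 arrays. Without control replicate 2 the 5 most opposed were Slc10a3 (−0.931), Pilra, Ostm1, Ggct and Dnph1 (−0.911). All of these but Dnph1 were under 7.05 on every array.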

How the data were processed

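RNA of 12 male mouse liver samples (3 groups of 4) was labelled from 100 ng of total RNA and hybridised to Affymetrix whole-transcript arrays. The authors deposited log2 expression values per probe set, and the submitters' processing notes name Affymetrix Expression Console. For its version, background correction and normalization nothing is given in the sources used here, and the log2 scale was inferred from the values (0.73 to 13.64). Array medians were 4.49 to 4.60.

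Of 72688 probe sets, 30604 had 1 gene symbol in the platform annotation, 2146 several and 39938 were unnamed here. Where a gene had more than 1 (355 genes), the brightest was taken. Genes with a mean above 4.55, the median of all probe sets, were tested (18725). The 5222 negative control probe sets had a median of 4.24. All 12 arrays entered 1 fit (lmFit and eBayes of limma 3.58.1, R 4.3.3), with Benjamini-Hochberg adjustment over all genes tested and a threshold of 0.05. The script was tested on simulated data. Correlations are Pearson or Spearman coefficients without p-values.

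The members and the gene lists were chosen with earlier results of these data known. Named were all members, the 3 genes of each list with the lowest unadjusted p in each comparison with control (some are given as part of the counts only), and the 10 genes most like and 5 most opposed to the score, with and without the array of the most extreme score. Predicted, RIKEN and small RNA genes were passed over. Markers of 10 cell types and a sex check served to check the tissue. Alternatives were another normalization, centring, filter, variance model, array weights, the replicate number or small nucleolar RNA set as a block, each array left out in turn, and, chosen after seeing the data, control replicate 2 and F2 replicate 4 left out together. The protein identity planned for close copies was not analysed here.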

Additional observations from a re-analysis of the deposited data

Results flagged for a closer look

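Control replicate 2 stood apart from the other 3 control livers for 4 genes, by the share of the group's range that separates its value from the nearest other (Dixon's criterion, 0.829 for 4 samples). Ehhadh was at 12.03 there, against 9.97 to 10.26 in the other controls. Pdk4 was at 7.13, against 5.65 to 5.76, Vnn1 at 10.18, against 7.31 to 7.79, and Pex11a at 8.76, against 7.24 to 7.42. The genes were selected knowing that fatty acid oxidation genes were high on this array, so this restates what chose them and is a description. These 4 were found among 27 combinations of probe set and group, of which chance gives about 1 in 20, and the 4 share 1 array and are not independent of each other.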

How the results depend on the processing

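Of 621 fits of single members over all settings none was called by limma, with a smallest adjusted p of 0.656. With the replicate number as a block the member medians stay at −0.11, −0.45 and −0.52 by construction, as each group holds each number once. Deviations of same-numbered arrays from their group means correlated above r = 0.1 in 3 of 12 pairs, and those of other pairs in 19 of 36. The count of genes called over all genes was 0 in each comparison, also with that block. Within the lower small nucleolar RNA set alone, which has a single F3 array, it was 2 in F3 against control and 3 in F3 against F2. It was 172, 548 and 443 at an unadjusted p under 0.05. The median pairwise r was 0.76 to 0.89 with 1 array left out in turn, 0.60 within that lower set and 0.51 without control replicate 2 and F2 replicate 4.

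Single members kept their direction in 550 of 597 alternatives and turned in 47, in 26 of these with 1 array left out. Many alternatives could not move a difference: an array left out of the group not compared, another filter or variance model, or the replicate block. The 550 therefore do not measure stability. Of the 24 member differences, 14 turned without some array. With 1 array left out in turn, differences in F2 against control ran from −1.44 to 0.63 for Cyp4a14, −0.71 to 0.14 for Ehhadh, −0.04 to 1.00 for Acot1, −0.42 to 0.87 for Acot3, −0.67 to 0.60 for Abcd2 and −0.061 to 0.45 for Pex11a. In F3 against control they ran from −0.88 to 0.16 for Acot1, −1.02 to 0.27 for Acot3, −0.80 to 0.47 for Abcd2, −0.42 to 0.075 for Pdk4, −0.70 to 0.26 for Vnn1 and −0.50 to 0.0062 for Pex11a. In F3 against F2 they ran from −0.69 to 0.057 for Ehhadh and −0.38 to 0.23 for Abcd2. Member medians ran from −0.45 (without control replicate 1) to 0.62 (without control replicate 2) in F2 against control, from −0.81 to 0.12 without the same arrays in F3 against control, and from −0.85 (without F2 replicate 2) to −0.21 (without F2 replicate 4) in F3 against F2.

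With array weights the member median was 0.77 in F2 against control (7 higher, 1 lower), −0.0021 in F3 against control (4 higher, 4 lower) and −0.79 in F3 against F2. F2 against control then had Cyp4a14 at 1.36, Ehhadh at 0.21 and Abcd2 at 0.20, and F3 against control had Acot1 at 0.051, Acot3 at 0.12, Abcd2 at 0.022 and Vnn1 at 0.15. In the higher set alone, F2 against control had Cyp4a14 at 0.28 and Acot3 at −0.0036. In the lower set alone, Abcd2 was at 0.40 in F2 against control, and Acot1 at 0.11 and Pdk4 at 0.10 in F3 against control. Without control replicate 2 and F2 replicate 4, Abcd2 was at 0.32 in F2 against control. F3 against control then had Acot1 at 0.16, Acot3 at 0.27, Abcd2 at 0.47, Pdk4 at 0.075, Vnn1 at 0.26 and Pex11a at 0.0062, and F3 against F2 had Ehhadh at 0.057 and Abcd2 at 0.15. Apart from the turns that come with arrays left out, the cause was not tested. Signal within the range of the negative controls limits Pdk4, Acot3 and Abcd2 on most arrays and Acot1, Cyp4a14, Vnn1 and Pex11a on some.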
